A study of Mus musculus with 2 samples.

Results

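The genes described here build, cut, remodel and take up lipoproteins in the liver: Mttp, Pltp, Lcat, Lipc, Lpl, Abca1, Scarb1, Lrp1 and Angptl4. They were chosen by symbol, as every probe set of the array whose annotation names 1 of these 9 genes and no other gene. That gave 17 probe sets for 8 genes, out of 34945 probe sets with a single gene symbol. Lipc, the hepatic lipase gene, had no probe set named for it alone, and its level was not analysed here.

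The liver packs triglyceride and cholesterol ester onto apolipoprotein B in the endoplasmic reticulum and secretes them as very low density lipoprotein (VLDL). Lipases bound to the vessel wall then remove the triglyceride, transfer proteins and acyltransferases pass the shed surface lipid to high density lipoprotein (HDL), and hepatocyte receptors take up the remnants and the HDL cholesterol. Mice lack the cholesteryl ester transfer protein of humans and carry most of their plasma cholesterol in HDL.

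Liver RNA came from male C57Bl/6J mice, 9 weeks old before a week of acclimatisation, that had all eaten an n-3-depleted diet, low in the omega-3 polyunsaturated fatty acids because sunflower oil replaced soybean oil; per the labels the feeding period lasted 112 days. For the final 10 days the DEF/FOS mice stayed on the depleted diet, with an n-6/n-3 ratio of 127.2, and took 0.25 g per day of fructooligosaccharides (FOS), a fermentable fibre, in their water. The DEF/CT mice were returned to the soybean oil control diet, whose ratio was 6.9, so the fibre and the dietary oil both differed between the groups and their parts cannot be told apart. The treatment protocol gives 8 mice for each group and the extract protocol 4 to 8, and each group's RNA was pooled onto 1 Affymetrix array. A single array per pool allows no replicate check and no test, and each difference below describes these 2 pools.

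Values are MAS5 signals on a linear scale, scaled by the authors to a common trimmed mean of 100. The log2 difference is DEF/FOS minus DEF/CT, centred on the median of all probe sets above a signal floor of 19.4, and a fold comes from that centred difference. Of the 17 probe sets, 16 lay above the floor, and the same 16 lay above the 75th percentile of signal, 84.3. Each gene was represented by its brightest probe set. All 9 hepatocyte markers with a probe set lay above the floor, with summed signals of 71407 in DEF/FOS liver and 75175 in DEF/CT liver. In whole liver, fewer cells of a type and less RNA per cell cannot be told apart.

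Pltp, the phospholipid transfer protein gene, was 1.71-fold higher in DEF/FOS liver, and its other probe set was 2.05-fold higher. By their brightest probe sets the other 7 genes differed by 1.15-fold or less. A dimmer probe set was 1.23-fold higher for Abca1 and 1.21-fold lower for Lrp1 in DEF/FOS liver. At a threshold of 1.5-fold, 1 of 8 genes was higher and 0 were lower, against 6.75% higher and 7.82% lower among 11163 genes above the floor. Among the 6751 genes above the 75th percentile of signal, where all 8 genes lie, the shares were 4.01% and 2.77%. A count of 1 in 8 is thus close to the background, and it is no result about the group as a whole. The median log2 difference of the 8 genes was -0.01, beside one of -0.00 over all genes above the floor. Of the 8 genes 3 were above 0 and 5 below, and 49.9% of all genes above the floor were above 0.

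At the smaller threshold of 1.2-fold in either direction, chosen after the values had been seen, 1 of the 8 genes (12.5%) was beyond it by its brightest probe set. The dimmer probe sets of Abca1 and Lrp1 given above were also beyond it. Over all genes the share beyond 1.2-fold was 44.4%, and above the 75th percentile of signal it was 34.0%. The threshold was set with the 8 values known, so no conclusion is drawn from these shares. The spread between probe sets of the same gene is the only spread within a gene that these data hold. It is not a repeat measurement. From 4885 genes with several probe sets above the floor, its SD on the log2 scale was 0.38. Above the 75th percentile its SD on the log2 scale was 0.22, from 2302 genes that have several such probe sets, and it was 0.15 for the 6 of the 8 genes with several probe sets above the floor. By the brightest probe set, only Pltp of the 8 genes differed by more than 0.22 in either direction, and the SD leaves out the spread between mice and between arrays.

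**Figure D1:**
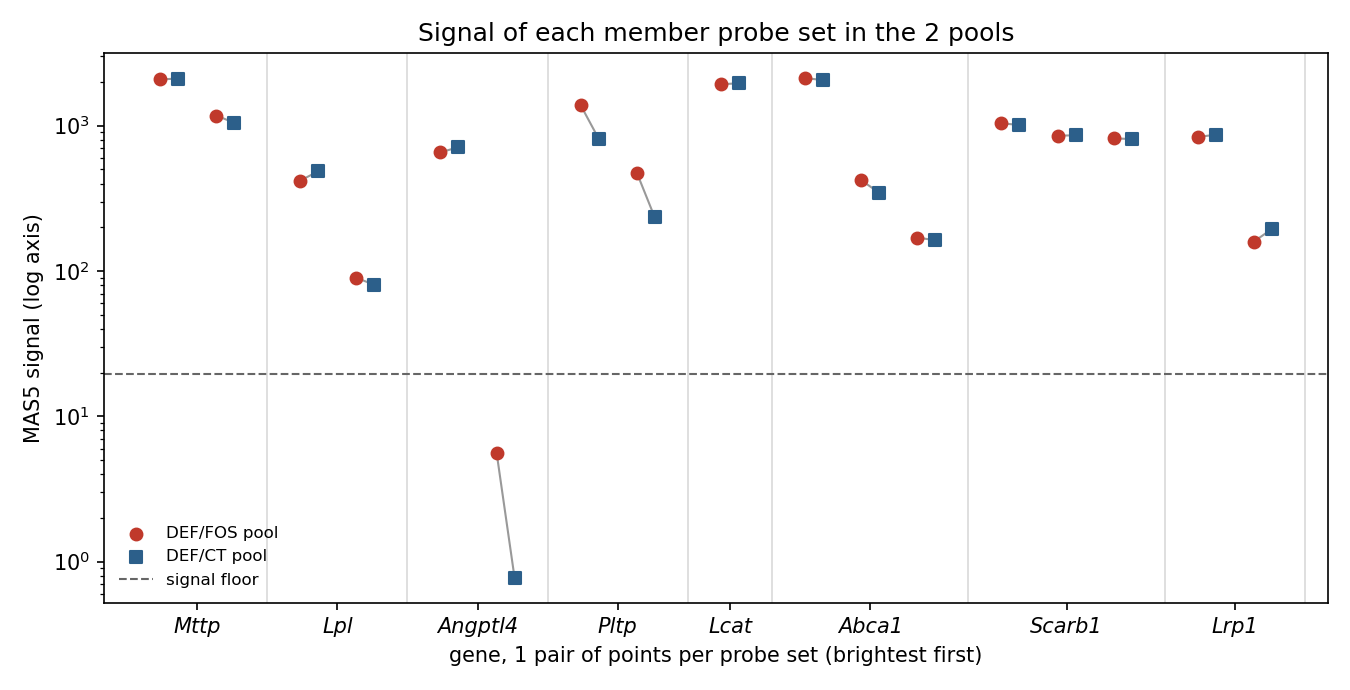
MAS5 signal (log axis) of each of the 17 probe sets in DEF/FOS liver (circles) and the DEF/CT pool (squares), with the signal floor of 19.4 as a dashed line. Both probe sets of Pltp are higher in DEF/FOS liver, the other pairs above the floor lie nearly level, and 1 probe set of Angptl4 is below the floor in both pools.

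Mttp encodes the large subunit of the microsomal triglyceride transfer protein, which loads lipid onto apolipoprotein B as it enters the endoplasmic reticulum. Its brightest probe set had signals of 2079 in DEF/FOS liver and 2111 in DEF/CT liver, a log2 difference of -0.01. The other probe set read 1175 and 1049 in DEF/FOS and DEF/CT liver, a log2 difference of 0.18. The probe sets thus differed in sign, by less than the SD of 0.22 in each case. The partner subunit of the same transfer protein, protein disulfide isomerase (P4hb), had a log2 difference of -0.11. Apob, the structural protein of VLDL, had 0.22 by its brightest probe set and -0.14 by its other one.

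Of 25 further genes of VLDL assembly and secretion, all of which lay above the floor, 0 were higher and 1 was lower by 1.5-fold or more in DEF/FOS liver, with a median log2 difference of 0.04. That gene was Sorl1, a sorting receptor of the endosome and Golgi, with signals of 26.6 in DEF/FOS liver and 46.2 in DEF/CT liver, 1.72-fold lower. Some dimmer probe sets of this list lay past 1.5-fold in either direction, such as -0.71 for Arfrp1 and 0.74 for Mia3 on the log2 scale. Mia2, which helps load large cargo into vesicles leaving the endoplasmic reticulum, differed by -0.47. Pdia3, a disulfide isomerase, differed by -0.44 by its brightest probe set and by -0.63 by its other one. Sec23b, a coat protein of vesicles leaving the endoplasmic reticulum, differed by 0.40. Tm6sf2, which takes part in lipid loading of VLDL, differed by 0.27.

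Lpl encodes lipoprotein lipase, which hydrolyses the triglyceride of VLDL and chylomicrons and is made mainly in muscle, fat and macrophages, with little in adult hepatocytes. Its brightest probe set read 419 in DEF/FOS liver and 485 in DEF/CT liver, a log2 difference of -0.20. The other probe set read 89.6 in DEF/FOS liver and 80.5 in DEF/CT liver, a log2 difference of 0.17, so the sign of the Lpl difference depends on the probe set. With the median over both probe sets the difference was -0.01.

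Skeletal muscle, a tissue that makes lipoprotein lipase, had unequal marker RNA between the pools. Of 15 skeletal muscle markers 13 had a mean signal above the floor, with sums of 171 in DEF/FOS liver and 2893 in DEF/CT liver. For 9 of the 13 the DEF/FOS signal lay under the floor, so they passed it only through DEF/CT liver, and the DEF/FOS sum holds those values. The 4 above the floor in both pools were 4.92-fold to 7.90-fold lower in DEF/FOS liver. Of the 2 other markers on that list, myoglobin (Mb) read 1.18 in DEF/FOS liver and 317 in DEF/CT liver, and Ttn lay below the floor in both. Of the 12 Kupffer cell and macrophage markers above the floor, 1 was higher by 1.5-fold or more in DEF/FOS liver and 0 were lower, with summed signals of 5025 in DEF/FOS liver and 4272 in DEF/CT liver. Adipocyte markers were scarce: 3 of 7 with a probe set lay above the floor, with summed signals of 166 in DEF/FOS liver and 164 in DEF/CT liver, while the mean signals of the adipokine genes Adipoq, Lep and Retn and of Cidea lay below it. The part of these cells in the Lpl signal was not tested.

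Angptl4 encodes a secreted inhibitor of lipoprotein lipase, and in mouse liver it is a known target of PPARα, the fatty-acid-activated receptor. Its brightest probe set read 656 in DEF/FOS liver and 711 in DEF/CT liver, a log2 difference of -0.10. The other probe set read 5.63 in DEF/FOS liver and 0.777 in DEF/CT liver, both below the floor, and no fold or order is read from them. Angptl4 therefore rests on 1 probe set, of a type that can match several transcripts.

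Of 22 further genes that control the lipases 21 lay above the floor, and at 1.5-fold 2 were higher and 0 lower in DEF/FOS liver. Their median log2 difference was 0.07. Over all genes above the floor the shares were 6.75% higher and 7.82% lower. Angptl8, a secreted protein that lowers lipoprotein lipase activity in muscle and is known to follow feeding and insulin, read 901 in DEF/FOS liver and 385 in DEF/CT liver, 2.36-fold higher by its only probe set. Apoa4, an apolipoprotein of chylomicrons and of fat-loaded liver, was 1.51-fold higher, at 3091 in DEF/FOS liver and 2069 in DEF/CT liver. It lay just past 1.5-fold, and under it in several of the alternatives. The intracellular lipases Mgll, a monoglyceride lipase, and Lipe, the hormone-sensitive lipase, differed by 0.57 and 0.41 on the log2 scale.

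The cofactors of lipoprotein lipase lay closer to 0. Apoc2, its activator, differed by 0.32 on the log2 scale, Apoc3, its inhibitor, by -0.05 and Apoa5, a further activator, by 0.01. Gpihbp1, which anchors the enzyme on capillary endothelium, differed by -0.02. Lmf1, which folds the lipases in the endoplasmic reticulum, differed by -0.16 by its brightest probe set and by 0.17 by the other. Of the proteases that cleave lipases and angiopoietin-like proteins, Furin differed by 0.07 and Pcsk6 by 0.03. Pcsk5 differed by -0.24 by its brightest probe set, and its 3 probe sets ran from -0.24 to 0.16.

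Pltp was the gene of the 8 that stood apart. Its protein moves phospholipid from triglyceride-rich particles to HDL and converts HDL particles in size, and in mice its gene is a known target of the oxysterol receptor LXR, the bile acid receptor FXR and PPARα. Its brightest probe set read 1380 in DEF/FOS liver and 814 in DEF/CT liver, a log2 difference of 0.78. The other read 474 in DEF/FOS liver and 233 in DEF/CT liver, a log2 difference of 1.04. Both probe sets were higher in DEF/FOS liver. The first is of a type that can match several transcripts, and the second of the type designed to match 1 gene. Of the genes above the floor, 389 (3.48%) had a difference at or above the 0.78 of Pltp, and 127 (1.88%) of those above the 75th percentile of signal did. Kupffer cells also express Pltp, and the part of the marker difference given above in the Pltp signal was not tested.

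**Figure D2:**
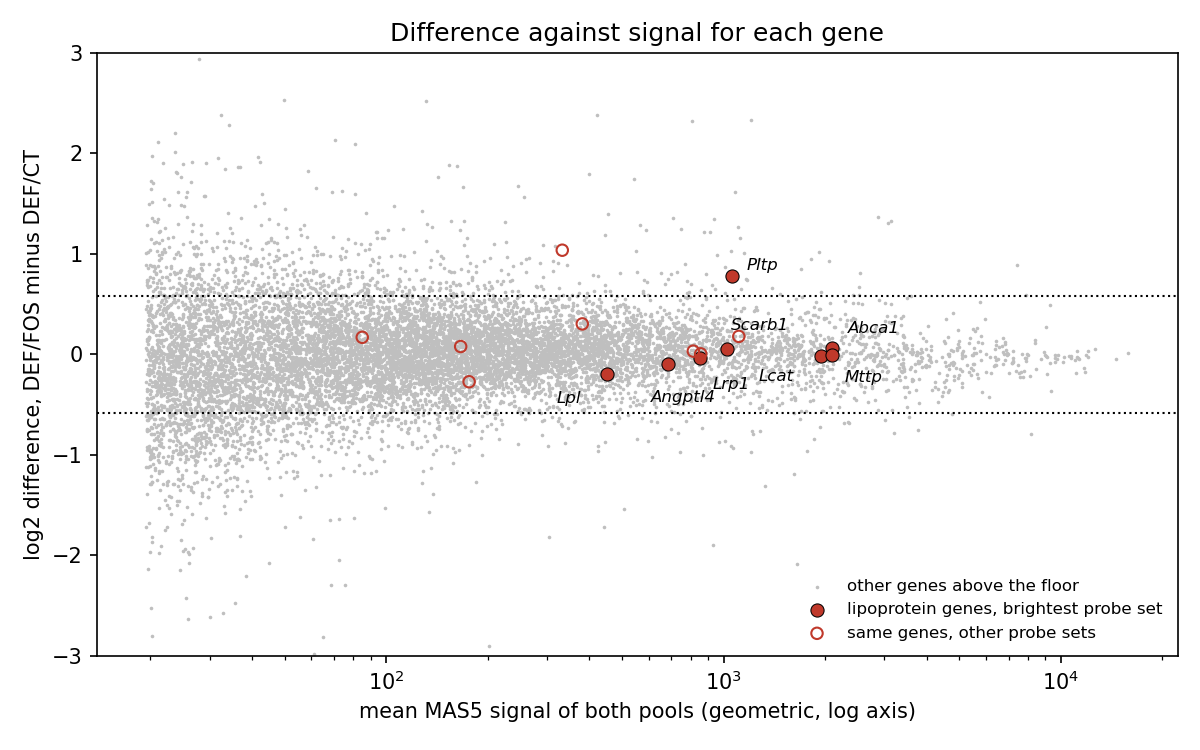
Log2 difference (DEF/FOS minus DEF/CT) against the geometric mean MAS5 signal of both pools (log axis) for the genes above the floor, with the 8 lipoprotein genes in red (filled for the brightest probe set, open for the others) and the 1.5-fold threshold dotted. Both Pltp points lie above the upper line and all other red points lie between the lines; 13 genes fall outside the plotted range of 3 in either direction.

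The sequences just upstream of the start of Pltp and of Abca1 are shown because both genes are known LXR targets and only the first was past 1.5-fold. They are from RefSeq (GRCm38.p6), both on the minus strand, and run 5′ to 3′ over the 250 bases before the annotated start, at chr2:164857709-164857958 for Pltp and chr4:53159896-53160145 for Abca1. Capitals mark matches on either strand to the CCAAT box (CCAAT), the GC box (GGGCGG), the E-box (CACGTG), the TATA box (TATAAA), or the 6-base word NGGTNA repeated head to tail with 4 bases between (DR4, the layout LXR binds) or 1 base between (DR1, the layout PPARα binds).
Pltp: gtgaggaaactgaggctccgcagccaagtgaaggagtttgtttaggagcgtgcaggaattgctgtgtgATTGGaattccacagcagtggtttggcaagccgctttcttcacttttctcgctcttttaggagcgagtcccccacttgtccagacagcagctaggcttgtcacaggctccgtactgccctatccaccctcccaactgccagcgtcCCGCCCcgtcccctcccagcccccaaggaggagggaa
Abca1: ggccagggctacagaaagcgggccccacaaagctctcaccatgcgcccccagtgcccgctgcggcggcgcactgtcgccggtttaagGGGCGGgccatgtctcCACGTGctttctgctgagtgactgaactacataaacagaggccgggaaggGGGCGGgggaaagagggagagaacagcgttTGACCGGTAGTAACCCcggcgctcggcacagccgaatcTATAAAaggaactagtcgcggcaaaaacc

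The Pltp window held 1 CCAAT box, its first base 182 bases before the start, and 1 GC box 37 bases before it, and none of the other motifs. The Abca1 window held a DR4 match 67 bases before the start, an E-box, a TATA box and 2 GC boxes. Over the 32851 RefSeq promoters of the same length, 0.621% held a DR4 match, 0.935% a DR1 match and 6.02% an E-box. A TATA box was in 12.4%, a GC box in 32.7% and a CCAAT box in 33.8%. Promoters were found for 6 of the 9 genes, and no DR1 match and no further DR4 match was in the windows of Mttp, Lcat, Lrp1 and Lipc. These are matches of letters, not measured binding sites, and elements outside the window or with other letters are not covered.

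Abca1 encodes the transporter that exports cholesterol and phospholipid to lipid-poor apolipoprotein A-I, the first step of HDL formation. Its brightest probe set read 2129 in DEF/FOS liver and 2056 in DEF/CT liver, a log2 difference of 0.07. The second read 421 in DEF/FOS liver and 345 in DEF/CT liver (0.30), and the third 170 in DEF/FOS liver and 163 in DEF/CT liver (0.08). All 3 were slightly higher in DEF/FOS liver, 2 of them by less than the SD between probe sets of a gene.

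Known LXR targets on the lists had values on both sides of 0. Cd36, a lipid uptake receptor, differed by 0.98 on the log2 scale. The sterol exporters Abcg5 and Abcg8 differed by 0.04 and 0.00 on the log2 scale. Abcg1, a transporter that exports cholesterol to mature HDL, differed by -0.32, and Mylip, which degrades the LDL receptor, by -0.12. Srebf1, the lipogenic regulator, differed by 0.14. The gene of the receptor itself, Nr1h3, read 244 in DEF/FOS liver and 321 in DEF/CT liver, a log2 difference of -0.38. The part of LXR in the Pltp difference was not tested.

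Lcat encodes the plasma acyltransferase that esterifies the cholesterol of HDL. Its single probe set read 1924 in DEF/FOS liver and 1961 in DEF/CT liver, a log2 difference of -0.01. The apolipoproteins of HDL were as close: Apoa1, its main protein and the activator of the acyltransferase, differed by -0.04, Apoa2 by 0.05 and Apoe by -0.06 on the log2 scale.

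Scarb1 encodes the HDL receptor of hepatocytes, which takes up cholesterol ester without degrading the particle. Its probe sets read 1040, 853 and 819 in DEF/FOS liver, against 1010, 859 and 809 in DEF/CT liver. The log2 differences were 0.06, 0.01 and 0.03, the narrowest range of the 6 genes with several probe sets. Pdzk1, the scaffold that holds the receptor at the hepatocyte surface, differed by 0.15.

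Of 25 further genes of HDL and lipid transfer 22 lay above the floor, and at 1.5-fold 3 were higher and 0 lower in DEF/FOS liver, with a median log2 difference of 0.04. Pla2g7, a lipoprotein-bound phospholipase made by macrophages, read 62.4 in DEF/FOS liver and 16.2, below the floor, in DEF/CT liver, and was at least 3.25-fold higher. Of the ABC transporters, Abca2 was 1.74-fold higher, at 85.3 in DEF/FOS liver and 49.5 in DEF/CT liver, and fell under 1.5-fold with the offset of 32. Abca3, at 0.59 on the log2 scale, lay just past 1.5-fold and under it in 4 of the alternatives. Nceh1, a cholesterol ester hydrolase, had log2 differences from 0.21 to 1.93 over 3 probe sets and 0.58 by the brightest.

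Lrp1 encodes the large endocytic receptor that clears chylomicron and VLDL remnants together with the LDL receptor. Its brightest probe set read 837 in DEF/FOS liver and 867 in DEF/CT liver, a log2 difference of -0.04. The other read 159 in DEF/FOS liver and 195 in DEF/CT liver, a log2 difference of -0.27. Both were slightly lower in DEF/FOS liver and neither reached 1.5-fold, and the first stood at 0.02 when the differences were centred over all probe sets with no floor. Lrpap1, the chaperone of this receptor, differed by -0.00 by its brightest probe set, and its 4 probe sets ran from -0.45 to 0.19 on the log2 scale.

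Of 28 other uptake genes 21 lay above the floor, and at 1.5-fold 4 were higher and 0 lower in DEF/FOS liver, with a median log2 difference of -0.00. Cd36, a receptor for fatty acids and oxidised lipoproteins, read 242 in DEF/FOS liver and 124 in DEF/CT liver, 1.97-fold higher, and its 3 probe sets ran from 0.66 to 0.98 on the log2 scale. Vldlr, the VLDL receptor, was 1.58-fold higher, at 56.8 in DEF/FOS liver and 36.2 in DEF/CT liver. Marco, a scavenger receptor that is also on the macrophage list, was 2.14-fold higher. Hs2st1, which modifies the heparan sulfate that binds remnants, was 1.77-fold higher, while the lowest log2 difference among its 4 probe sets was -0.21. Cd36 and Vldlr are known PPARα targets in mouse liver, as is Angptl4, whose log2 difference was -0.10. The part of PPARα in these differences was not tested.

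Of 24 regulators of these genes 20 lay above the floor, and 6 of the 20 had a log2 difference above 0, with a median of -0.16. Over all genes above the floor, 49.9% had a difference above 0. Several of the regulators differed by less than the SD of 0.22 between probe sets of a gene. Past 1.5-fold, 2 were higher and 1 was lower. Ppargc1b, a coactivator that drives VLDL secretion in mouse liver, read 136 in DEF/FOS liver and 234 in DEF/CT liver, 1.70-fold lower. Skeletal muscle marker RNA was also lower in DEF/FOS liver, as given above, and its part in the Ppargc1b difference was not tested. Srebf2, which switches on cholesterol synthesis genes, was 1.70-fold and Pparg 1.54-fold higher, at signals of 93.3 and 43.2 in DEF/FOS liver, against 55.6 and 28.3 in DEF/CT liver. Ppard differed by -0.45 and Ppara, the receptor gene of the fatty acid response, by -0.42. Nr1h4, which encodes FXR, differed by -0.16 and Rxra, the shared partner of these receptors, by -0.08.

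**Figure D3:**
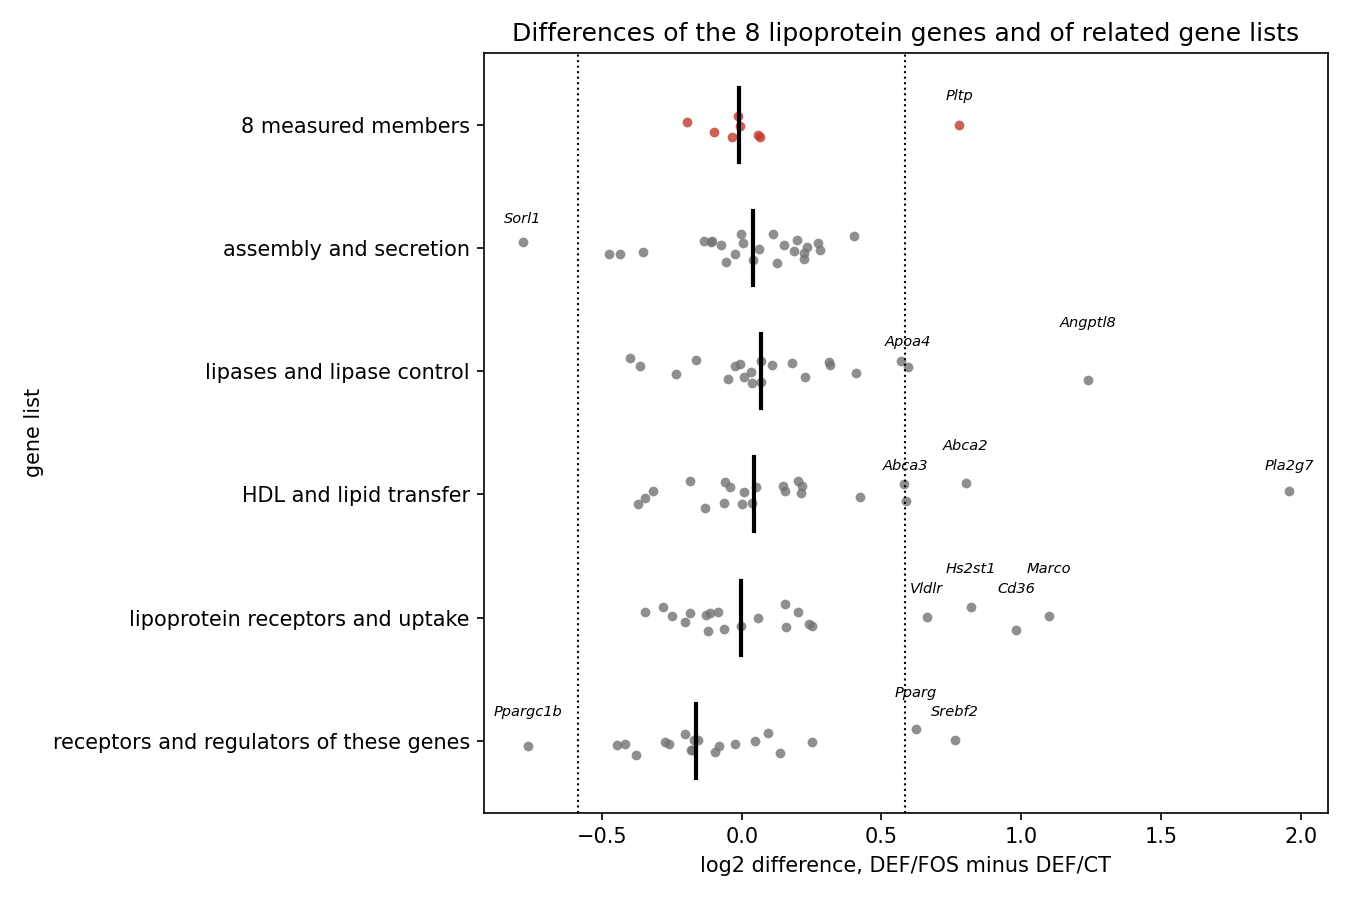
Log2 difference (DEF/FOS minus DEF/CT) of each gene above the floor, for the 8 measured lipoprotein genes (red) and 5 lists of related genes (grey); black bars are medians, dotted lines mark 1.5-fold, and genes past it are named. Pltp lies alone to the right among the 8, and the list medians run from -0.16 to 0.07; Pla2g7 is drawn at its measured value of 1.96, although its DEF/CT signal is below the floor.

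Over the 5 lists together, 109 of 124 genes lay above the floor, and at 1.5-fold 11 (10.1%) were higher and 2 (1.83%) lower in DEF/FOS liver, with a median log2 difference of 0.01. For these counts and those of each list, the shares over all genes above the floor were the 6.75% and 7.82% given above. Among genes above the 75th percentile of signal they were 4.01% and 2.77%. The list genes lie on both sides of that percentile.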

How the data were processed

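The deposited table gives a linear signal intensity for 45101 probe sets on each of 2 arrays. The submitters' processing notes name MAS5 and GCOS, with no version. With 2% trimmed from either end, each array had a mean of 100. Detection calls and background values were not used here. RNA was pooled within each group before labelling, per the labels' protocols, so the number of arrays limits the precision.

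Probe sets were named from the annotation of the platform. Of the probe sets that are not among the 64 controls, 34945 had 1 symbol, 932 had several and 9160 were not listed. Entrez identifiers matched a RefSeq gene table (GRCm38.p6) for 34741, and 0 symbols differed.

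Signals were compared as log2 differences, DEF/FOS minus DEF/CT, with no offset, centred on the median over probe sets whose mean log2 signal was at or above the median of all (19.4). That median was -0.01. This floor is not a detection call. A fold with 1 pool under the floor is a lower bound, taken against the floor. Genes were counted at 1.5-fold. Every probe set of the 9 genes is reported. From each of 5 lists of related genes, the rule named the 4 with the largest absolute difference and up to 4 more past 1.5-fold. Other genes of the lists were named for their role, after their values had been seen. One gene of the lists is not reported here. The genes and lists were chosen with earlier results of these data known. Likeness of pattern between genes is not defined with 1 difference per gene. The procedure was tested on simulated data. Calculations used Python 3.11.15, numpy 2.4.6 and pandas 2.3.3. The alternatives were no floor, a floor at the 75th percentile, an offset of 32, no centring, quantile normalization, the median over probe sets, no probe sets with the suffix _x_at or _s_at, and signals below the floor set to it.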

Additional observations from a re-analysis of the deposited data

How the results depend on the processing

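Under all 8 alternatives 1 of the measured genes was at least 1.5-fold higher in DEF/FOS liver and 0 were lower. Beyond 1.2-fold, the threshold chosen after the values had been seen, the count was also 1. The log2 difference of Pltp lay between 0.75 and 1.04, the highest, 1.037, without the _x_at and _s_at probe sets, where only its other probe set is left. The median of the genes lay between -0.03 and 0.05, so its sign was not stable. Without those probe sets Angptl4 gave no value, since its remaining probe set is below the floor. For the related lists, an offset of 32, which shrinks differences at low signal, left 1 gene past 1.5-fold upward for lipase control, 1 for HDL and lipid transfer, 3 for uptake and 0 among the regulators, and the floor at the 75th percentile left 1, 0, 3 and 0. Both left Sorl1 uncounted. Apoa4 and Abca3, just past 1.5-fold, were under it in these settings, without centring and under quantile normalization. The offset put Vldlr at 0.39, Abca2 at 0.54, Pparg at 0.33 and Srebf2 at 0.53. The median over probe sets put Hs2st1 at 0.32 and Srebf2 at 0.56. All of these values were under 1.5-fold. Abca2, Pparg, Srebf2 and Pla2g7 gave no value with the higher floor. Vldlr gave no value with the higher floor or without the _x_at and _s_at probe sets. Each pool is 1 array, so no setting measures the spread between mice, and the unnamed probe sets and Lipc were not analysed here.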

Other observations

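In the RefSeq annotation (GRCm38.p6), Pltp overlaps its neighbour Ctsa, which encodes the lysosomal protective protein cathepsin A. The brightest probe set of Ctsa read 653 in DEF/FOS liver and 660 in DEF/CT liver, a log2 difference of 0.00, and its other probe set had one of 0.33. Of the nearest protein-coding genes on either side, Neurl2 differed by 0.51, at signals of 65.7 in DEF/FOS liver and 46.5 in DEF/CT liver. Pcif1 differed by 0.07 and Zfp335 by 0.13. These neighbours were looked up after the value of Pltp had been seen.

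The markers of other liver cells are given as values. Endothelial markers had summed signals of 2465 in DEF/FOS liver and 2528 in DEF/CT liver over 12 genes, 1 of them at least 1.5-fold lower. Stellate cell and fibroblast markers had 2541 in DEF/FOS liver and 2754 in DEF/CT liver over 8 genes, with none past 1.5-fold. Neutrophil markers had 459 in DEF/FOS liver and 168 in DEF/CT liver over the 6 of 9 genes above the floor. Of these 6, 5 were above 0 and 3 (Lcn2, S100a8 and S100a9) were at least 1.5-fold higher, while Elane differed by -0.30. The mean signals of Mpo, Ltf and Camp lay below the floor. They read 2.83, 2.84 and 1.28 in DEF/FOS liver, against 21.8, 11.6 and 1.80 in DEF/CT liver. Smooth muscle markers had 246 in DEF/FOS liver and 213 in DEF/CT liver over 3 genes, with none past 1.5-fold once Actg2, below the floor in DEF/CT liver, is set against the floor (at least 1.31-fold higher).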
